A study of Mus musculus with 28 samples.

Results

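Liver gene expression of juvenile male C3H mice on postnatal day 32 (PND32) was compared with that of young adult male C3H mice on postnatal day 67 (PND67). The comparison rests on 8 of the 28 arrays of the series, 4 from PND32 and 4 from PND67, chosen by the strain and age in the labels, and these 8 arrays were scaled and fitted alone. Per the labels, each array held total RNA from the liver of 1 mouse of strain C3H, with no genotype change and no treatment in either group. The mice were born to timed-pregnant dams from a commercial breeder. They were kept on Alpha Dry bedding, a 12-hour light and dark cycle, Ralston Purina 5001 diet and free water, and were killed with CO2. The hour of killing and the litter of each mouse are unknown, so p-values measure only the spread between these 8 livers. No date or batch of the arrays is stated in the labels.

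Between weaning and adulthood the mouse liver stops growing with the body and completes its adult programme of metabolism. Xenobiotic metabolizing enzymes and transporters (XME) oxidize, conjugate and export foreign compounds and many hormones, and cytochrome P450s carry out much of the oxidation. In the male, the pulsed release of growth hormone after puberty sets the expression of many of these genes apart from that in the female. The liver also holds a circadian clock, in which the activators ARNTL and CLOCK drive the genes of their own repressors, and clock output genes follow over the day.

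Levels are given as log2(intensity + 16) for the brightest probe set of each gene, so the lowest possible level is 4. A gene was taken as above background where its level passed 5.24, a bound that 95% of the values below 0 do not exceed in size. A difference is the PND32 mean minus the PND67 mean on this scale, ± the standard error from limma, with 4 mice per group, and it understates the change of dim genes. No level was set against that of another gene.

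The livers did not separate by age. PND32 replicate 4 correlated more closely with the PND67 arrays (mean r = 0.9864) than with the other PND32 arrays (0.9783), and its closest array was PND67 replicate 3. PND67 replicate 1 correlated more closely with the PND32 arrays (0.9841) than with the other PND67 arrays (0.9805), and its closest array was PND32 replicate 2. With the clock, muscle and pancreas genes left out these values were 0.9867 and 0.9805 for PND32 replicate 4, and 0.9856 and 0.9812 for PND67 replicate 1. The first principal component held 45% of the variance of 9395 genes above background on average. It placed PND32 replicates 1 to 3 and PND67 replicate 1 between -20.2 and -11.4, and PND32 replicate 4 and the other 3 PND67 arrays between 5.6 and 19.9. The groups were kept as labelled. Whether these arrays carry each other's label or come from livers that differ from the rest of their age cannot be told apart here, and this bears on every age difference given below. Mean intensity as deposited ran from 107.6 to 163.6 per array, and 19.01% to 21.08% of the values lay below 0. The male label was borne out on all 8 arrays, where the Y-linked genes Uty, Kdm5d and Eif2s3y were above background and Xist was not.

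**Figure D1:**
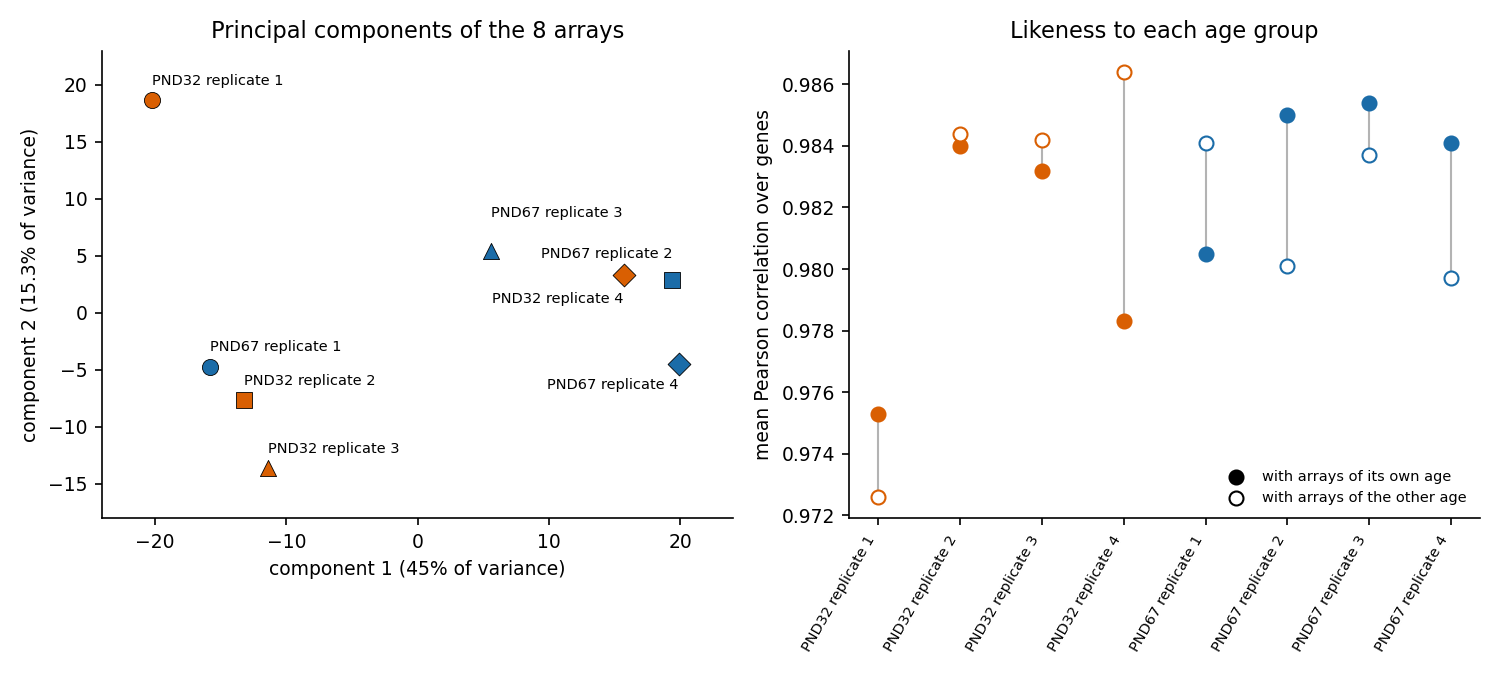
The left panel plots the 8 arrays by their first and second principal component scores, with PND32 in orange, PND67 in blue and a symbol per replicate number. The right panel plots each array's mean Pearson correlation over genes with the arrays of its own age (filled) and of the other age (open): PND32 replicate 4 and PND67 replicate 1 lie nearer the other age.

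Hepatocyte genes marked every array as liver. Alb, the gene of serum albumin, ranked between 5 and 18 among all genes on each array, and its level was 12.97 to 13.20 at PND32 and 13.05 to 13.22 at PND67. Of 25 hepatocyte genes measured, 24 had a 95% interval of the difference within 2-fold either way (96%, beside 95.3% of all genes). Their median difference was -0.0007 after quantile normalization, -0.11 with array median scaling and 0.07 without scaling. Markers of stellate cells (Reln, Colec11), sinusoidal endothelium (Kdr, Stab2, Clec4g) and Kupffer cells (Clec4f, Vsig4, Adgre1) were above background on all 8 arrays. Des, a stellate marker that muscle also expresses, and the endothelial marker Pecam1 were above background on PND32 replicate 1 alone, at 7.34 and 5.50. That array also carried muscle transcripts, as given below, and their part in the Des level was not tested. The defining markers of T cells (Cd3e), insulin-making cells (Ins2) and intestinal epithelium (Cdh17) were at 4 on every array. Cd8a, a co-receptor of killer T cells, was dim but higher in each PND32 liver, at 5.18, 5.48, 5.06 and 5.27 against 4.5, 4.55, 4.83 and 4.62, a difference of 0.62 ± 0.11 (limma adjusted p = 0.511), and it passed the background bound on 2 PND32 arrays. Of the 31 T and NK cell genes measured, Cd8a alone did not overlap between the ages. In that list 10 genes had a higher mean at PND32 and 19 a lower one.

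PND32 replicate 1 carried transcripts of skeletal muscle and of exocrine pancreas at levels that the other 7 arrays did not reach. Acta1, the actin of skeletal muscle fibres, had a level of 12.09 on PND32 replicate 1, 5.83, 4.89 and 4.36 on the other PND32 arrays, and 4.00, 4.00, 4.00 and 4.23 at PND67. Ckm, the muscle creatine kinase, had a level of 10.53 on that array and at most 4.88 on the others. Over the 18 muscle genes the median level was 10.17 on PND32 replicate 1 and 4.04 to 4.74 elsewhere. The pancreatic signal was smaller. Of the 38 exocrine pancreas genes measured, the median level was 5.89 on PND32 replicate 1 and 4.33 to 4.59 on the other 7 arrays. Ctrb1, the precursor of chymotrypsin, had a level of 8.58 there and at most 4.93 elsewhere. Cpa1, a carboxypeptidase, had a level of 7.36 there and 4.00 on each of the other arrays. The procarboxypeptidase gene Cpb1 stood at 7.47 against at most 4.13, and Clps, the cofactor of pancreatic lipase, at 6.88 against at most 4.57. Ctrb1, Cpa1, Cpb1 and Clps are examples with a wide gap, which not every member showed. Amy1 and Cela1, which are also made in liver, were above 9 on every array and showed no such gap, with levels on PND32 replicate 1 of 10.22 and 10.20. Klk1, at 6.28 on that array, lay within the range of the others. So did further members that were below background there, such as Rbpjl (4.00), Ptf1a (4.82) and Bhlha15 (4.41).

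**Figure D2:**
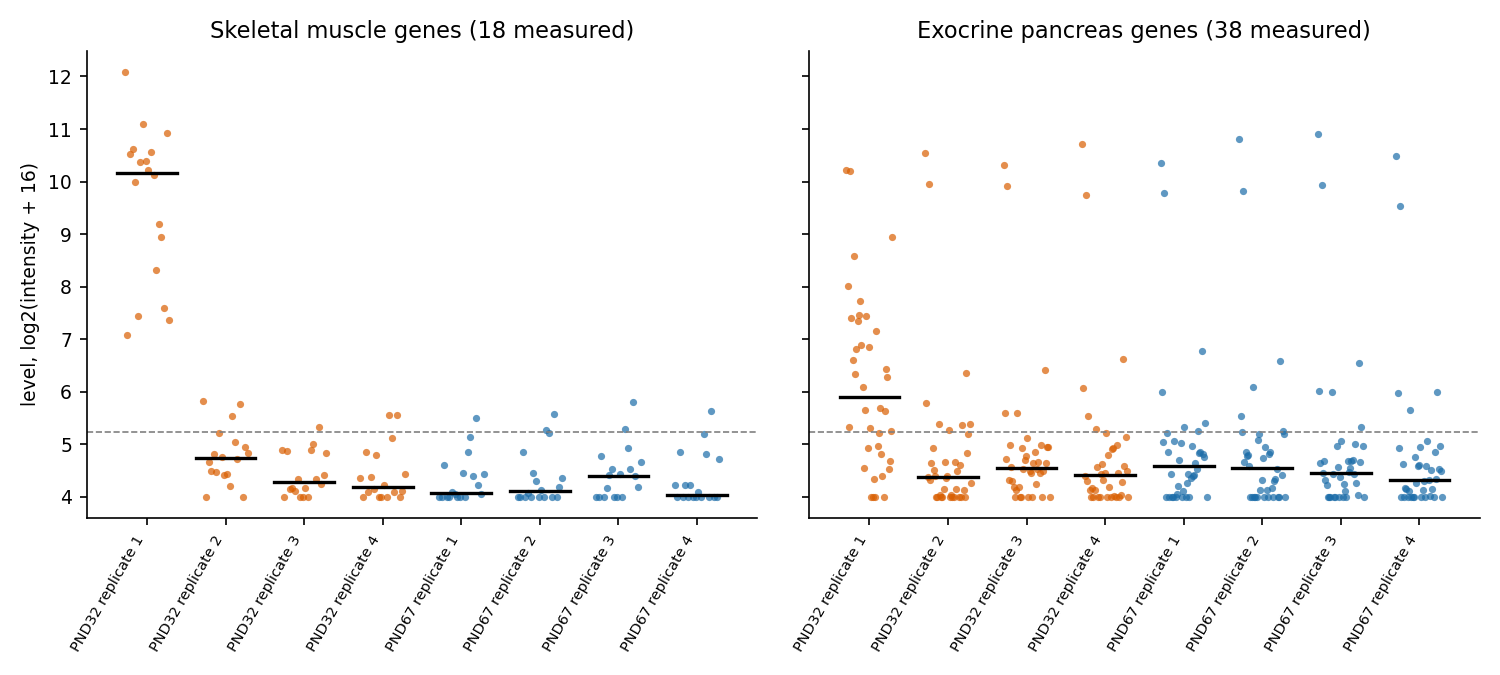
Each point is the level of 1 gene on 1 array, in log2(intensity + 16), for skeletal muscle genes (left) and exocrine pancreas genes (right). Black bars are medians and the dashed line is the background bound of 5.24. PND32 replicate 1 stands alone, with medians of 10.17 and 5.89.

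The age differences of these lists rested on PND32 replicate 1. The median difference of the muscle list was 1.47 with all arrays and 0.14 without PND32 replicate 1. That of the exocrine pancreas list was 0.22 and -0.0012. Igfbp5, an IGF-binding protein, had a level of 7.77 on PND32 replicate 1 and 5.15 to 5.49 on the other PND32 arrays, and its difference went from 0.17 to -0.43 without that array. The muscle isoform of enolase, Eno3, went from 0.77 to -0.08. Of 16 endocrine pancreas genes, Ttr alone, which hepatocytes also express, was above background on all arrays of an age, and the median difference was 0.00. Their levels on PND32 replicate 1 had a median of 4.02, against 4.04 to 4.21 on the other arrays. Genes of mesothelium, the covering of abdominal organs, had a median level of 5.21 on PND32 replicate 1 and 4.53 to 4.81 on the others, and the mesothelial marker Upk3b was above background on that array alone, at 5.82.

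No gene was called between the ages. Limma with Benjamini-Hochberg adjustment over 18193 genes called 0 genes higher at PND32 (0%) and 0 lower (0%) at an adjusted p of 0.05. The lowest adjusted p was 0.0986, shared by Tmem61 and Sarm1, both of which lay below background on all 8 arrays. At an unadjusted p under 0.05, 769 genes passed (4.23% of those tested), 393 of them higher at PND32 (2.16%) and 376 lower (2.07%). The levels of the age groups did not overlap for 163 genes higher at PND32 (0.896%) and for 147 lower (0.808%). The intervals bound what these data leave room for. The 95% interval of the difference lay within 2-fold either way for 95.3% of genes and within 1.5-fold for 78.3%. These shares depend on the pseudocount, and with 1 in place of 16 the share within 2-fold was 58.4%. Of the 8904 genes above background on all 4 arrays of at least 1 age, 81.0% had an interval within 1.5-fold. The number of genes with an unadjusted p under 0.05 was 1476 without PND32 replicate 4 and 1394 without PND67 replicate 1, and with either left out at most 1 gene was called. Both arrays were singled out for their likeness to the other age, so a rise on leaving either out is largely built in. Nothing is read from such a rise, here or for the genes and lists below.

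The genes with the lowest p among those above background differed by well under 2-fold. Among the 8904 genes above background on all arrays of an age, the lowest limma adjusted p was 0.342, with the adjustment over all genes. With dim genes filtered out before the fit, 9538 genes were tested, and the lowest limma adjusted p was 0.961, for Itih5. Itih5, a member of the family of hyaluronan-binding inhibitor heavy chains, had levels of 7.41, 7.43, 7.66 and 7.56 at PND32 and 7.07, 7.09, 7.02 and 7.02 at PND67. The groups did not overlap, and the difference was 0.46 ± 0.06 (adjusted p = 0.342). Bmp4, a secreted bone morphogenetic protein, lay between 6.32 and 6.35 at PND32 and between 5.90 and 6.12 at PND67, a difference of 0.34 ± 0.05. In the alternative runs the differences ran from 0.22 to 0.60 for Itih5 and from 0.20 to 0.47 for Bmp4. Both genes were picked for a low p on these same arrays, so their unchanged sign adds no support.

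Other genes higher at PND32 by this rule were also without overlap, which a choice by lowest p favours. The phospholipase gene Plcb4 differed by 0.43 ± 0.07, and Fundc2, of the outer mitochondrial membrane, by 0.47 ± 0.11. Rev3l, the catalytic subunit of the translesion DNA polymerase zeta, differed by 0.29 ± 0.06. Ckap5, which promotes microtubule growth, differed by 0.19 ± 0.04. Zc3h4 (0.18 ± 0.02), Ccdc66 (0.32 ± 0.05), Atxn3 (0.22 ± 0.05) and Chst14 (0.26 ± 0.06) completed the list.

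Genes lower at PND32 were of similar size. Bcap31, a chaperone of the endoplasmic reticulum membrane, had levels of 9.90 to 9.98 at PND32 and 10.08 to 10.36 at PND67, a difference of -0.29 ± 0.06. Siglec1, the sialic acid receptor of macrophages, lay below background on all PND32 arrays (4.63 to 5.03) and just above it at PND67 (5.28 to 5.38), with a difference of -0.43 ± 0.09. P2ry2, a receptor for extracellular nucleotides, differed by -0.47 ± 0.10 and was likewise not well above background at PND32. The Golgi transport genes Gosr1 (-0.17 ± 0.03) and Cog8 (-0.19 ± 0.04) were lower at PND32, although Cog8 was 0.06 higher when all of its probe sets were averaged. Casc3 (-0.28 ± 0.06), Pars2 (-0.23 ± 0.05), Nyx (-0.45 ± 0.06), Wdcp (-0.25 ± 0.04) and Klhl17 (-0.33 ± 0.07) made up the rest, and Klhl17 was 0.17 higher with another choice of probe set.

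The median XME gene was at a nearly equal level in juvenile and young adult liver. Of 251 measured, 0 were called in either direction, 5 had an unadjusted p under 0.05 with a higher mean at PND32 and 3 with a lower one (beside 2.16% and 2.07% of all genes), and the median difference was -0.02. Their interval lay within 2-fold for 228 genes (90.8%) and within 1.5-fold for 178 (70.9%), beside 95.3% and 78.3% of all genes.

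Cytochrome P450s, the oxidases of phase I, had a median difference of -0.04 over 57 genes, 23 of them higher and 34 lower at PND32. Their interval lay within 2-fold for 45 (78.9%) and within 1.5-fold for 37 (64.9%), beside 95.3% and 78.3% of all genes. Cyp3a11, the main CYP3A enzyme of male mouse liver, had levels of 12.90 to 13.02 at PND32 and 12.79 to 12.87 at PND67. Every PND32 liver was higher, by a small margin (0.12 ± 0.04, unadjusted p = 0.014, adjusted p = 0.95 by limma). Cyp2e1, which oxidizes ethanol and acetaminophen, lay between 12.95 and 13.05 in all 8 livers, a difference of -0.02 ± 0.03. Cyp1a2, the caffeine oxidase, lay at 11.98, 12.23, 12.31 and 12.17 at PND32 and at 12.25, 12.43, 12.22 and 12.28 at PND67, a difference of -0.12 ± 0.08 with overlap. Cyp4f13, a fatty acid hydroxylase, was the P450 with the lowest p, at -0.38 ± 0.11.

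Several P450s varied between livers of 1 age by more than the ages differed. Cyp2c39 had levels of 7.88, 7.50, 6.80 and 5.90 at PND32 and 7.63, 6.27, 5.52 and 5.78 at PND67, a difference of 0.72 ± 0.60. Cyp26a1, which breaks down retinoic acid, spanned 7.23 to 8.67 at PND32 and 7.57 to 9.47 at PND67. Cyp2b10, the classical target of the nuclear receptor CAR, was above background on 1 PND32 array and 1 PND67 array. These 3 genes were picked once their values were known.

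Among 71 other phase I enzymes the median difference was 0.00, and 70 had an interval within 2-fold (98.6%, beside 95.3% of all genes). Akr1d1, the reductase that saturates the steroid ring in bile acid synthesis, was higher in each PND32 liver (0.22 ± 0.09). Fmo5, a flavin monooxygenase, differed by -0.16 ± 0.06. Aldh1a2, which makes retinoic acid, showed the lowest p of all XME genes (unadjusted p = 0.00014) at 4.82 to 5.06 against 4.00 to 4.38, but it was below background on all 8 arrays.

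Phase II enzymes, which conjugate the products, had a median difference of -0.03 over 67 genes, with 0 past an unadjusted p of 0.05. Acsm1, an acyl-CoA synthetase of glycine conjugation, differed by -0.16 ± 0.07 and the sulfotransferase Sult5a1 by -0.34 ± 0.15. The widest spans were those of Nnmt, which methylates nicotinamide, and of the glutathione transferase gene Gsta2. Nnmt stood at 5.43, 5.76, 6.43 and 5.37 at PND32 and at 6.30, 6.75, 5.94 and 8.33 at PND67. Gsta2 stood at 7.34, 6.85, 7.35 and 9.65 at PND32 and at 7.84, 8.91, 9.53 and 8.61 at PND67. Both were picked once their values were known, and their groups overlapped. Sult1e1, the estrogen sulfotransferase, was at 4.00 on all 8 arrays.

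Transporters had a median difference of -0.03 over 56 genes. Slc19a1, the reduced folate carrier, was lower in each PND32 liver (-0.32 ± 0.11). Atp8b1, a phospholipid flippase of the bile canaliculus, was higher by 0.23 ± 0.09. Slco1a1, an uptake carrier of organic anions that is typical of male liver, lay at 10.45 to 10.95 at PND32 and 10.60 to 10.88 at PND67, a difference of -0.03 ± 0.13.

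**Figure D3:**
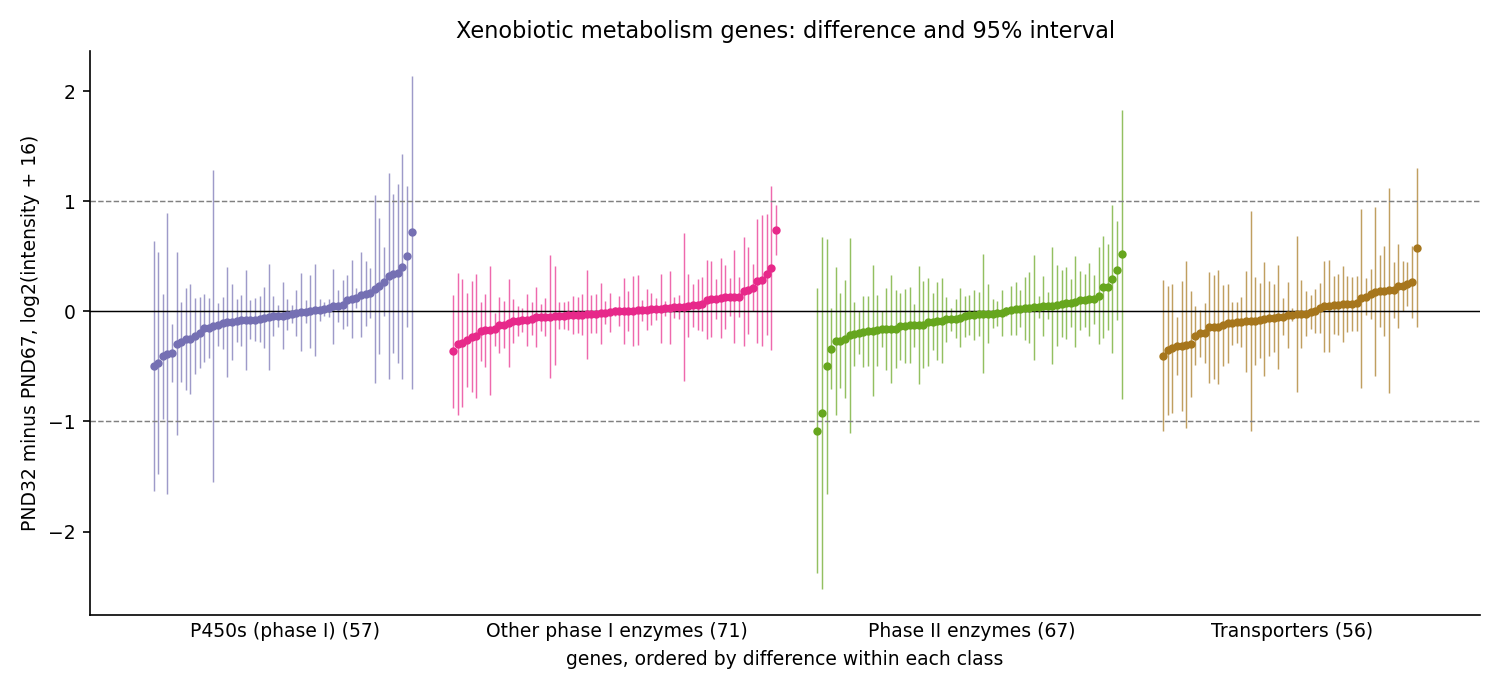
Each point is 1 gene of 4 XME classes, ordered by its difference (PND32 minus PND67, log2), with its 95% interval as a line and dashed lines at 2-fold either way. The points of each class centre near 0, with class medians of -0.04, 0.00, -0.03 and -0.03.

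Regulators of these genes showed the same pattern. Of 36 measured, 0 were called, 3 had an unadjusted p under 0.05 (beside 4.23% of all genes) and the median difference was -0.05. The receptors for foreign compounds PXR (Nr1i2, -0.34 ± 0.21) and CAR (Nr1i3, -0.18 ± 0.21) overlapped between the ages, as did Ahr, the dioxin receptor (0.12 ± 0.15), and Ppara, the fatty acid receptor (-0.19 ± 0.13). Arnt, the partner of AHR, differed by 0.27 ± 0.10 and Rxrb, a retinoid X receptor, by -0.32 ± 0.12, each with overlap. Keap1, the inhibitor of NRF2, differed by -0.16 ± 0.06. Hnf4a, the master regulator of hepatocyte genes, was 10.75, 10.79, 10.74 and 11.13 at PND32 and 10.79, 11.24, 11.11 and 11.25 at PND67. PND32 replicate 4 was the high one of its age and PND67 replicate 1 the low one. The Hnf4a difference was -0.24 with all arrays, -0.34 without PND32 replicate 4 and -0.35 without PND67 replicate 1. Ppard, a fatty acid receptor, was split the other way round, with PND32 replicate 4 the lowest juvenile and PND67 replicate 1 the highest adult. Ppard had levels of 7.44, 6.92, 6.89 and 5.05 at PND32 and 7.30, 4.98, 5.95 and 5.12 at PND67, and its difference of 0.74 was 1.25 and 1.23 without these arrays in turn. Ppargc1b, a coactivator of mitochondrial genes, had levels of 6.29, 6.44, 6.09 and 7.78 at PND32 and 7.02, 8.11, 7.14 and 7.92 at PND67, with the split of Hnf4a. Its difference was -0.90, or -1.27 without PND32 replicate 4 and -1.07 without PND67 replicate 1.

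Of genes typical of male liver, 0 were called between PND32 and PND67. The 28 male-biased genes had a median difference of -0.03, with 8 higher and 20 lower at PND32. Their interval lay within 2-fold for 21 (75%) and within 1.5-fold for 16 (57.1%), beside 95.3% and 78.3% of all genes. Cyp2d9 (-0.10 ± 0.10), Cyp4a12a (-0.06 ± 0.12), Hsd3b5 (0.03 ± 0.12) and Mup3 (-0.01 ± 0.07), a P450 pair, a steroid dehydrogenase and a major urinary protein of male liver, overlapped between the ages. All 4 belong to families of close copies, so their probe sets may also read relatives. Elovl3, a fatty acid elongase, spanned 11.10 to 11.61 at PND32 and 10.04 to 11.95 at PND67. Ihh, a hedgehog ligand, was higher in each PND32 liver, at 5.61 to 5.97 against 5.10 to 5.53 (0.40 ± 0.11).

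Many female-biased genes were dim in these males, but not all. Of 36 measured, 15 were above background on all arrays of at least 1 age, beside 8904 of all 18193 genes. The median difference was 0.04. Cyp2b9 was above background on 2 PND32 arrays and on PND67 replicate 1, where its level was 6.83. Cyp2b13 was below background on all 8 arrays. Hamp2, a gene of the hepcidin family, was lower in each PND32 liver at 11.11 to 11.35 against 11.50 to 11.98 (-0.37 ± 0.12), but 0.18 higher with another choice of probe set. Hamp2 and Hamp are close copies and their probe sets may share signal. Lpl, the lipase that frees fatty acids from lipoproteins, lay at 11.05, 11.09, 11.11 and 9.40 at PND32 and at 10.76, 9.50, 9.28 and 9.05 at PND67. Here PND32 replicate 4 and PND67 replicate 1 again sat apart from their groups, and the difference of 1.02 ± 0.53 was 1.44 without the first and 1.39 without the second.

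The growth hormone and IGF axis had a median difference of 0.10 over 33 genes, with 23 higher at PND32 and 0 past an unadjusted p of 0.05. With 1 mouse left out, the median ran from 0.03 without PND67 replicate 2 to 0.18 without PND67 replicate 1. Igf1, the growth factor that the liver secretes in response to growth hormone, lay at 11.66, 12.17, 11.93 and 11.63 at PND32 and at 11.88, 11.87, 11.64 and 11.94 at PND67 (0.02 ± 0.13). The growth hormone receptor Ghr differed by -0.02 ± 0.12. Socs2, a growth hormone target that dampens the receptor's signal, had levels of 8.74, 8.08, 8.07 and 7.92 at PND32 and 7.82, 7.28, 7.30 and 8.15 at PND67 (0.56 ± 0.26), with PND67 replicate 4 inside the juvenile range. Igfbp1, a binding protein of IGFs that fasting induces, differed by 0.86 ± 0.46 with overlap.

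The classical fetal transcripts Afp and Igf2 were near background at both ages. Afp, alpha-fetoprotein, was above background on PND32 replicate 4 alone (5.88), and Igf2, the fetal growth factor, on PND32 replicate 1 alone (5.61). The 35 fetal and imprinted genes had a median difference of 0.10, and 14 were above background on all arrays of at least 1 age. Slc38a4, an imprinted amino acid transporter, was bright, at 11.43 to 11.83 at PND32 and 11.70 to 11.89 at PND67, with a difference of -0.21 ± 0.09 and overlap. Sox4, a transcription factor of immature cells, was the member with the lowest p, at 6.41, 6.24, 6.13 and 5.76 at PND32 and 5.72, 5.41, 5.49 and 4.97 at PND67. The groups did not overlap and the difference was 0.74 ± 0.20 (unadjusted p = 0.0075, adjusted p = 0.95 by limma).

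Cell division genes tended to higher levels at PND32 without any call. Of 80 proliferation genes, 66 had a higher mean at PND32 (82.5%, beside 48.6% of all genes) and the median difference was 0.25, beside 0.00 over all genes. Only 24 of the 80 were above background on all arrays of at least 1 age. The number with an unadjusted p under 0.05 was 4, all higher, beside 2.16% of all genes. The median difference was 0.14 without PND32 replicate 1, 0.34 without PND32 replicate 4 and 0.32 without PND67 replicate 1. Mad2l1, of the spindle checkpoint, had levels of 6.46, 5.96, 5.77 and 5.45 at PND32 and 5.45, 5.04, 5.30 and 4.89 at PND67. The lowest juvenile just exceeded the highest adult, and the difference was 0.74 ± 0.23. Mki67, the proliferation antigen, stood at 6.13, 5.27, 5.26 and 4.68 at PND32 and at 5.47, 4.56, 4.36 and 4.56 at PND67 (0.60 ± 0.36). Cdk1, the mitotic kinase, stood at 7.01, 5.95, 5.93 and 4.78 at PND32 and at 5.79, 5.13, 5.24 and 5.08 at PND67 (0.61 ± 0.45). In both genes PND32 replicate 4 was the lowest juvenile and PND67 replicate 1 the highest adult. The Mki67 difference was 0.83 without PND32 replicate 4, 0.85 without PND67 replicate 1 and 0.33 without PND32 replicate 1. For Cdk1 these values were 0.99, 0.77 and 0.24. PND32 replicate 1, the array with muscle and pancreas transcripts, was the highest of the 8 for Mad2l1, Mki67 and Cdk1, and the part of those tissues in these values was not tested. Top2a, the topoisomerase of dividing cells, differed by 0.52 ± 0.38 with overlap. The 4 histone genes measured had a median difference of 0.12, and -0.01 without PND32 replicate 1.

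Collagen and matrix genes ran parallel to the division genes. Of 72 measured, 62 had a higher mean at PND32 (86.1%, beside 48.6% of all genes), and 4 had an unadjusted p under 0.05, all higher (beside 2.16% of all genes). The median difference was 0.24. It was 0.10 without PND32 replicate 1, 0.38 without PND32 replicate 4 and 0.31 without PND67 replicate 1. Col1a1, a chain of type I collagen, had levels of 7.98, 5.70, 6.18 and 4.32 at PND32 and 6.57, 4.66, 4.00 and 4.00 at PND67. Its difference of 1.24 ± 0.91 became 0.58 without PND32 replicate 1 and 1.83 without either PND32 replicate 4 or PND67 replicate 1. Col3a1, of type III collagen, had levels of 10.71, 9.54, 9.29 and 7.84 at PND32 and 9.75, 7.94, 7.75 and 7.55 at PND67 (1.10 ± 0.73). Its difference was 0.64 without PND32 replicate 1 and 1.6 without either PND32 replicate 4 or PND67 replicate 1. Col1a2, the other chain of type I collagen, differed by 0.79 ± 0.62, or 0.27 without PND32 replicate 1. In Col3a1 and Col1a2 replicate 1 was the highest of each age and PND32 replicate 4 the lowest juvenile. The array with muscle and pancreas transcripts was the highest of the 8 for all 3 collagens, and the part of those tissues in the collagen values was not tested. Fbln5, an elastic fibre protein, and Hspg2, the basement membrane proteoglycan perlecan, had the lowest p among members above background on all arrays of an age, at 0.43 ± 0.16 and 0.20 ± 0.08. Lamb1, a laminin chain above background on 4 of the 8 arrays, had a lower p at 0.50 ± 0.17. The groups of all 3 overlapped.

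Stellate and endothelial genes leaned the same way, by less. Stellate cell genes had a median difference of 0.18, with 25 of 34 higher at PND32 (73.5%, beside 48.6% of all genes). Endothelial genes had a median difference of 0.10, with 31 of 38 higher (81.6%). In either list 0 genes had an unadjusted p under 0.05 by limma. Without PND32 replicate 1 these medians were 0.11 and 0.02, without PND32 replicate 4 they were 0.24 and 0.16, and without PND67 replicate 1 they were 0.21 and 0.13. The part of the muscle and pancreas tissue of PND32 replicate 1 in them was not tested. Per array the stellate median was 6.58, 6.22, 6.15 and 5.82 at PND32 and 6.29, 6.01, 6.01 and 6.00 at PND67. In whole tissue, fewer cells of a type and less RNA per cell cannot be told apart. Ngfr, a receptor of stellate cells, differed by 0.56 ± 0.25 and Dcn, the proteoglycan decorin, by 0.17 ± 0.09, or -0.04 with all probe sets averaged. The endothelial genes Egfl7 (0.20 ± 0.09) and Wnt2 (-0.19 ± 0.11) went opposite ways.

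**Figure D4:**
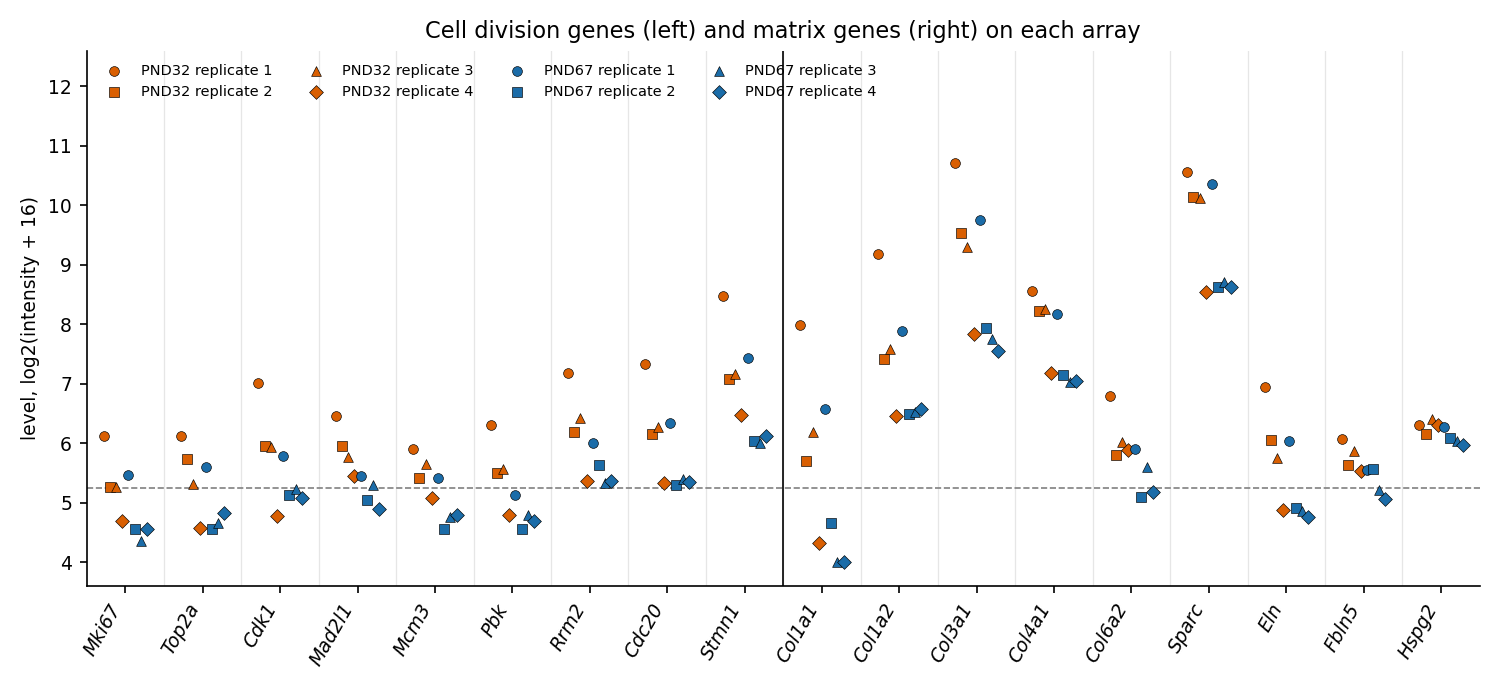
Levels of 9 cell division genes and 9 matrix genes on each array, in log2(intensity + 16), with PND32 in orange, PND67 in blue, a symbol per replicate and the background bound dashed. The genes shown were picked by hand, and all have a higher mean at PND32. For most of them PND32 replicates 1 to 3 and PND67 replicate 1 are high, and PND32 replicate 4 lies with the other 3 PND67 arrays. In the full lists 13 of 80 division genes and 10 of 72 matrix genes had a lower mean at PND32, among them Mcm10 (-0.47) and Col5a3 (-0.36).

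Several circadian clock genes varied widely between livers of the same age. Dbp, a clock output transcription factor, had levels of 5.39, 5.02, 5.37 and 9.65 at PND32 and 5.51, 9.94, 6.40 and 10.29 at PND67. It was therefore low in 3 juveniles and in 2 adults and high in 1 juvenile and 2 adults, and the difference of -1.68 ± 1.54 was -2.78 without PND32 replicate 4 and -2.52 without PND67 replicate 1. The range within each age was 4.63 and 4.78, the largest range common to both ages among named transcripts. Nr1d1, the clock repressor REV-ERB alpha, had levels of 4.00, 4.95, 5.05 and 8.06 at PND32 and 5.0, 7.68, 7.37 and 7.36 at PND67. Arntl, the activator that NR1D1 represses, had levels of 7.19, 7.25, 6.87 and 5.05 at PND32 and 7.33, 4.88, 6.79 and 4.15 at PND67. It was low on the 3 arrays where Dbp was high, but on PND67 replicate 3 both Arntl and Nr1d1 were high. Its difference of 0.81 ± 0.86 was -0.04 with another choice of probe set. Npas2, a partner of ARNTL, followed Arntl at 5.43, 5.46, 4.80 and 4.45 at PND32 and 5.57, 4.12, 5.09 and 4.20 at PND67.

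The promoters of clock genes are shown because the E-box bound by ARNTL and CLOCK and the D-box bound by DBP, TEF and HLF tie these genes to each other. Each run is the 250 bases before the start of the gene, 5′ to 3′ on its strand, from RefSeq GRCm38.p6, with the motif in capitals. Per1 (chr11:69098699-69098948, plus strand) and Ciart (chr3:95882229-95882478, minus strand) are repressors of the clock. Per3 (chr4:151044666-151044915, minus strand) is a period gene. Per1, Ciart, Noct and Hlf were chosen by rule, and Per3, Dbp and Nr1d1 once their values were known. Of these, only the promoters that held a motif are printed.
Per1: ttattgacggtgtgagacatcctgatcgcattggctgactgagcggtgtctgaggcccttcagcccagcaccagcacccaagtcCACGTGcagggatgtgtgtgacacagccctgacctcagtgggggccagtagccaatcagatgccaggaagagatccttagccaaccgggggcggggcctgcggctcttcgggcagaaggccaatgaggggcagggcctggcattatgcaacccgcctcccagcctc
Ciart: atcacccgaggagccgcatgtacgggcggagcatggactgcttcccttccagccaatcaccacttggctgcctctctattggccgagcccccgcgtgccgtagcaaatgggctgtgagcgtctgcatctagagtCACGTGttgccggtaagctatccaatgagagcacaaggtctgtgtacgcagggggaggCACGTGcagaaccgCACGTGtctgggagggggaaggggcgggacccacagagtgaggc
Per3: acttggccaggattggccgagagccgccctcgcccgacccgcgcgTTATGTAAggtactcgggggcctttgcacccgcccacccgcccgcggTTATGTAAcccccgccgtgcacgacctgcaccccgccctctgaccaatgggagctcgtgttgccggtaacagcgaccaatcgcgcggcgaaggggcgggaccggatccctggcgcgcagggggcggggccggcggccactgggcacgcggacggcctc

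Per1 held 1 E-box (CACGTG), which starts 166 bases before the gene, and Ciart held 3, which start 116, 58 and 44 bases before it. Per3 held 2 D-boxes (TTATGTAA), which start 205 and 158 bases before it. The search covered both strands, took CACGTG as the E-box, TTATGTAA or TTACGTAA as the D-box and TAGGTCA or TGGGTCA as the element bound by NR1D1 and ROR. Of all 27025 promoters of this length, 6.05% held the E-box, 0.962% the D-box and 5.38% the ROR element. Among 24 clock gene promoters in the table, of 28 genes measured, 7, 2 and 2 held them. The windows of Dbp, Nr1d1, Noct and Hlf held none of these letters.

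The 3 genes with printed promoters were highest in the same livers. Per1 had levels of 4.00, 4.00, 4.00 and 4.22 at PND32 and 4.19, 6.40, 5.12 and 5.85 at PND67. It was below background in every juvenile and above it in PND67 replicates 2 and 4, with a difference of -1.34 ± 0.45 (unadjusted p = 0.022, adjusted p = 0.95 by limma), the only clock gene past an unadjusted p of 0.05. Ciart stood at 4.00, 4.00, 4.00 and 4.39 at PND32 and at 4.00, 6.39, 4.00 and 6.75 at PND67 (-1.19 ± 0.70). Per3 stood at 4.51, 4.33, 4.31 and 5.90 at PND32 and at 4.25, 7.25, 4.67 and 7.85 at PND67 (-1.24 ± 0.92). PND67 replicates 2 and 4 were the highest for all 3.

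Besides PND67 replicates 2 and 4, the output genes Tef and Noct were high on PND32 replicate 4, where Per1 and Ciart lay below background. Tef, a relative of DBP, had levels of 6.62, 6.72, 6.12 and 8.68 at PND32 and 6.80, 9.15, 7.05 and 9.49 at PND67. Noct, which removes phosphate from nicotinamide dinucleotides, had levels of 6.16, 4.51, 4.40 and 8.39 at PND32 and 5.25, 9.18, 7.79 and 8.73 at PND67, the largest difference of the list at -1.87 ± 1.20, for which it was picked. Hlf differed by -0.56 ± 0.36, Per2 by -0.66 ± 0.36 and Cry1 by 0.32 ± 0.46, all with overlap. Clock itself spanned 6.70 to 7.20 at PND32 and 5.87 to 7.28 at PND67. Over the 28 clock genes the median difference was -0.42, with 18 lower at PND32, and it ran from -0.59 without PND32 replicate 4 to -0.27 without PND32 replicate 3. Only 7 of the 28 had an interval within 2-fold, beside 95.3% of all genes.

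**Figure D5:**
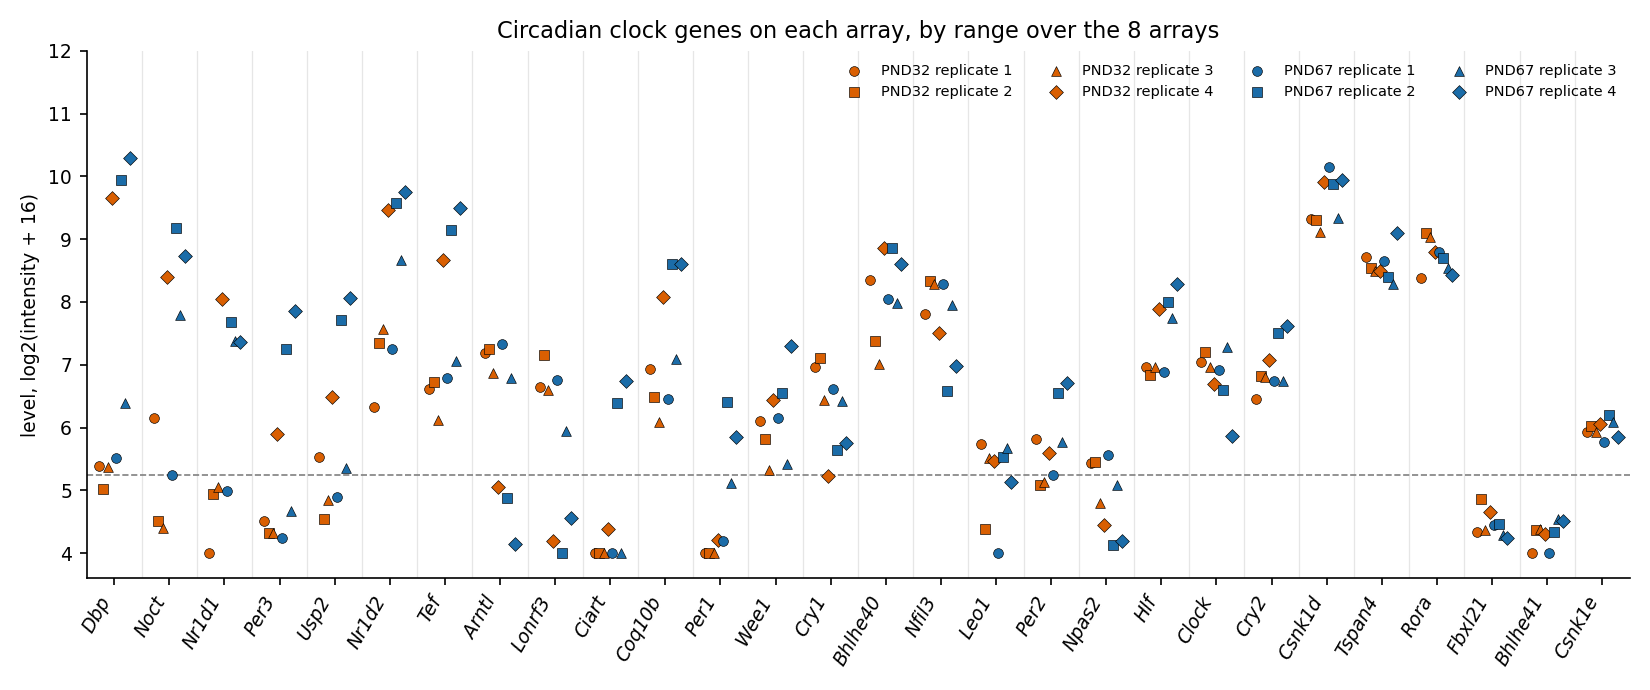
Levels of 28 circadian clock genes on each array, in log2(intensity + 16), ordered by their range over the 8 arrays, with PND32 in orange, PND67 in blue, a symbol per replicate and the background bound dashed. Dbp, Noct, Nr1d1, Nr1d2 and Tef are high on PND32 replicate 4 and on PND67 replicates 2 and 4, and Arntl and Npas2 are low there.

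Wide ranges within both ages were found outside the clock list too. A range of at least 1 on the log2 scale within PND32 and also within PND67 was found for 365 genes, and a range of at least 2 for 30 genes. Such ranges leave little room for the groups to stay apart, so nothing is read from their overlap. Cyp7a1, which makes the limiting step from cholesterol to bile acids, was 1 of the 30, with levels of 7.98, 7.38, 8.17 and 10.87 at PND32 and 7.99, 10.76, 9.93 and 11.21 at PND67 (-1.37 ± 0.98). The Cyp7a1 difference was -2.13 without PND32 replicate 4 and -2.03 without PND67 replicate 1. Alas1, which starts haem synthesis, had levels of 9.64, 7.01, 6.95 and 8.76 at PND32 and 7.24, 10.02, 8.04 and 11.28 at PND67. Rgs16, a regulator of G protein signalling, was above background on PND32 replicate 4 (7.18) and PND67 replicates 2 and 4 (7.55 and 6.58) only. Alas1 and Rgs16 were chosen after their values were seen.

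Plasma protein genes were level between the ages after quantile normalization, and zonation genes were less tightly bounded. Plasma protein genes had a median difference of 0.00 over 45 genes, with 43 intervals within 1.5-fold, among them Ambp (0.14 ± 0.08), Ttr (0.00 ± 0.02) and Fga (0.06 ± 0.03). Their median was -0.10 with array median scaling and -0.08 with trimmed mean scaling. Without scaling it was 0.08, as was the median of all genes. Among these bright liver genes, Apoa1 had a level of 13.48 on every array after quantile normalization. The part of the scaling in the narrow intervals was not tested. Perivenous hepatocyte genes had a median of -0.05 over 30 genes, with Glul, the glutamine synthetase around the central vein, at -0.17 ± 0.07 and Avpr1a at 0.43 ± 0.20. Periportal genes had a median of -0.05 over 28 genes, among them Apoa4, an apolipoprotein, at -0.27 ± 0.12. The interval lay within 1.5-fold for 20 of the perivenous genes (66.7%) and 15 of the periportal genes (53.6%), beside 78.3% of all genes. Differences in these lists reached -1.37 and -0.90. Bile acid genes also had a median of -0.05, over 30 genes, with Cyp27a1, of the alternative pathway, at -0.16 ± 0.10.

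Urea cycle and amino acid genes were slightly lower at PND32. Of 37, 33 had a lower mean there, 3 of them with an unadjusted p under 0.05 (beside 2.07% of all genes), and the median difference was -0.11, but 0.03 in the deposited values without scaling, in which the median of all genes was 0.08. Arg1, the arginase that releases urea, had levels of 11.86, 11.82, 11.70 and 12.04 at PND32 and 12.09, 12.20, 12.05 and 12.04 at PND67 (-0.24 ± 0.08). Haao, of tryptophan breakdown, differed by -0.13 ± 0.05, and by 0.03 without scaling. Gluconeogenesis and fasting genes had a median of -0.07 over 24 genes, with the aminotransferases Tat at -0.39 ± 0.18 and Got1 at -0.35 ± 0.17.

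Lipid genes were balanced. Fatty acid and triglyceride synthesis genes had a median of -0.02 over 36 genes, of which 2 had an unadjusted p under 0.05, both lower (beside 2.07% of all genes). Elovl6, the elongase of palmitate, had levels of 8.33, 8.17, 7.92 and 8.61 at PND32 and 8.65, 9.02, 8.56 and 8.67 at PND67 (-0.47 ± 0.17). Dgat1, which completes triglyceride synthesis, differed by -0.18 ± 0.08. Cholesterol synthesis genes had a median of -0.03 over 22 genes, with Mvk at -0.30 ± 0.13 and Sc5d at 0.29 ± 0.13. Targets of PPARalpha had a median of 0.00 over 48 genes, among them the lipase Mgll (-0.32 ± 0.17) and Cyp4a31 (0.17 ± 0.09). Adipose tissue genes had a median of 0.00 over 16, the fat cell hormone Adipoq was below background on all arrays, and Fabp4 differed by 0.66 ± 0.36, or by -0.29 with another choice of probe set.

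Hamp, the gene of the iron hormone hepcidin, was lower in each PND32 liver. Its levels were 12.53, 11.68, 12.29 and 12.65 at PND32 and 12.77, 12.88, 12.95 and 12.97 at PND67, a difference of -0.61 ± 0.21. Some acute phase genes were high in single livers. Saa1, a serum amyloid, had levels of 8.89, 10.50, 12.73 and 10.51 at PND32 and 11.05, 10.97, 10.45 and 12.25 at PND67. Orm2, an orosomucoid, stood at 10.37 on PND32 replicate 3 and 7.45 on PND67 replicate 4, and at 5.81 to 6.49 elsewhere. Over the 31 acute phase genes the median level was highest on those same arrays, at 11.04 and 11.55, and the median difference was -0.05. Saa1 and Orm2 were chosen after their values were seen, as was Crp, C-reactive protein, which lay between 11.04 and 11.33 in all 8 livers (-0.03 ± 0.07).

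Macrophage and antigen presentation genes were highest in PND67 replicate 1. Kupffer cell and macrophage genes had a median level of 6.81 there and 5.70 to 6.52 on the other arrays, with a median difference of -0.02 over 37 genes, or 0.20 without that array. Mpeg1, a pore-forming protein of macrophages, stood at 8.75 on it, at 7.42 to 8.32 on the other PND67 arrays and at 7.11 to 7.91 at PND32 (-0.62 ± 0.34). Antigen presentation genes had a median level of 7.18 on PND67 replicate 1 and 6.03 to 6.72 elsewhere, with a median difference of -0.09 over 24 genes, or 0.04 without it. H2-M3, a non-classical MHC gene, was lower in each PND32 liver, with a difference of -0.09 ± 0.04. Interferon response genes had a median of -0.05 over 43 genes, or 0.14 without PND67 replicate 1. Irf1, a transcription factor of that response, differed by -0.32 ± 0.13 with overlap.

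Lists of blood and duct cells had medians near 0. The median differences were -0.02 for T and NK cells (31 genes), 0.05 for B and plasma cells (26), 0.02 for granulocytes (23), -0.01 for erythroid cells (36), 0.00 for megakaryocytes and platelets (17) and 0.01 for cholangiocytes (25). Intestinal genes had a median of 0.04 over 22 genes and genes of spleen, lung and kidney -0.05 over 12. The haem enzyme Fech (-0.13 ± 0.09, but 0.02 without scaling), the B cell receptor Cd22 (-0.43 ± 0.24) and Cdh1, the cadherin of epithelia (0.51 ± 0.27), are examples from these lists. Their groups overlapped.

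Stress and immediate early genes varied between livers of 1 age. Egr1, which growth factors and stress induce within minutes, had levels of 9.81, 7.55, 8.80 and 6.59 at PND32 and 8.95, 6.03, 6.24 and 6.13 at PND67 (1.35 ± 0.93). Its difference was 0.81 without PND32 replicate 1, 1.88 without PND32 replicate 4 and 2.05 without PND67 replicate 1. Gadd45g, a growth arrest gene, had levels of 6.88, 8.36, 7.95 and 5.45 at PND32 and 4.80, 5.50, 5.50 and 6.83 at PND67, a difference of 1.5 ± 0.73. The 32 immediate early genes had a median difference of 0.11, or 0.01 without PND32 replicate 1. Oxidative stress genes had a median of -0.04 over 28 genes. Osgin1, an oxidative stress response gene, stood at 10.67, 10.77, 10.93 and 9.35 at PND32 and at 10.88, 8.33, 9.24 and 9.29 at PND67 (0.99 ± 0.60). Without PND32 replicate 4 the Osgin1 difference was 1.36, and without PND67 replicate 1 it was 1.48. Heat shock and unfolded protein genes had a median of 0.06 over 37 genes, with the chaperone Hspb8 at -0.65 ± 0.29 and Pdia4 at 0.38 ± 0.18. Metallothionein and glucocorticoid genes had a median of -0.14 over 17 genes, or 0.01 without PND67 replicate 4. Hif3a, a hypoxia-inducible factor subunit, was higher in each PND32 liver, at 5.29 to 5.48 against 4.97 to 5.20 (0.29 ± 0.07), close to background, and -0.06 with another choice of probe set. Tsc22d3, a glucocorticoid target, differed by -0.57 ± 0.25.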

How the data were processed

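Total liver RNA of 8 mice was measured on Affymetrix Mouse 430 2.0 arrays. The deposited intensity values of 45101 probe sets are linear, with no common scale; no label or file header used here names the software that made them. Members and gene lists were chosen with earlier results of these data known. The 8 arrays were quantile normalized, values below 0 were set to 0, and log2(intensity + 16) was taken. Each gene took its brightest probe set with exactly 1 symbol in the platform annotation (34945 of 45101 probe sets, 932 with several, 9160 with none and 64 controls left out), which gave 18193 genes; H19, Cyp3a41a and Ccnb1, among others, were not analysed here. Limma 3.58.1 in R 4.3.3 (lmFit, eBayes, two-sided, Benjamini-Hochberg over all genes) compared the ages. The fit was also run on simulated data with known changes, but the outcome is not reported here. The number of arrays, 4 per group, limits the precision. The 47 lists (1749 entries, 1545 measured) are described by counts and medians. Named genes were the 10 with the lowest p in each direction among those above background at 1 age and with a usual gene symbol, the 2 with the lowest p of each list under the same bound, and a fixed set, of which the text gives a part. Tables and plots used the R package data.table (version 1.17.8), pandas 2.3.3 and matplotlib 3.10.9 under Python 3.11.15. Alternatives were other scalings, pseudocounts, filters, probe sets, variance settings, samples in the fit and each mouse left out.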

Additional observations from a re-analysis of the deposited data

Results flagged for a closer look

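Within each age, a sample was picked out where its distance from the nearest other sample was too large a part of the range of the 4, by Dixon's test at 95%. Of 391 groups of 4 values tested, 31 were picked out, and chance alone picks out about 1 in 20. They fell on PND32 replicate 4 in 13 cases, on PND32 replicate 1 in 8 and on PND67 replicate 1 in 6.

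On PND32 replicate 4 the clock genes Dbp (9.65), Per3 (5.90) and Hlf (7.89), the regulators Hnf4a (11.13) and Foxa3 (9.07), the haem oxygenase Hmox1 (6.65), and the median levels of phase II enzymes (9.19) and of urea cycle and amino acid genes (10.93) lay above the other juveniles. Lpl (9.40), Osgin1 (9.35), Avpr1a (7.42), Esr1 (8.25) and Fga (13.04) lay below them.

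On PND32 replicate 1 the medians of skeletal muscle genes (10.17), exocrine pancreas genes (5.89) and immediate early genes (6.12) lay above the other juveniles, as did Eno3 (8.95), Igfbp5 (7.77) and H2ax (7.62). Tspan33 (7.09) and the median of the sex-linked genes (5.99) lay below.

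On PND67 replicate 1 Egr1 (8.95), Cyp2b9 (6.83), Col1a2 (7.89) and the median of stellate cell genes (6.29) lay above the other adults, and Nr1d1 (5.0) and Dgat1 (7.14) below. PND67 replicate 4 was high for Hmox1 (6.53) and Eif2s3y (8.42). PND32 replicate 2 was low for Hamp2 (11.11), and PND32 replicate 3 was high for Mvk (6.75), by a margin of under 0.1.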

How the results depend on the processing

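The count of called genes was 0 in each direction under every alternative scaling, filter, probe set choice, variance setting and sample choice tried, apart from those named here. A pseudocount of 1 called 4 genes higher (Cd209g, Cep250, Iqcf4, Prox2) and 3 lower (Nr0b1, Sarm1, Tmem61), all below background on all 8 arrays. It also lowered the share of genes with an interval within 2-fold from 95.3% to 58.4%. With 1 mouse left out, the number higher ran from 0 to 1 (Prox2 without PND32 replicate 3, Cep250 without PND32 replicate 4) and the number lower was 0 throughout. XME genes gave 0 calls in each direction throughout. The number of genes with an unadjusted p under 0.05 was 769 and ran from 295 with the filter on dim genes to 1476 without PND32 replicate 4. The replicate block called 0 genes in each direction, with 1079 genes at an unadjusted p under 0.05. Correlations of same-numbered samples, 0.19, -0.13, -0.10 and 0.20, gave no pairing, and the numbers are only names. Of 2344 values of named genes under other settings, 2191 moved by less than the spread between replicates, and 44 changed sign. With a mouse left out, 1344 of 1360 moved by less and 41 changed sign. Genes at the floor on all arrays were left out as an alternative chosen after seeing the data, with 657 genes at an unadjusted p under 0.05. The number of arrays and the closeness of dim genes to background limit what could be called.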
